A study of Homo sapiens with 6 samples.

Results

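Ubiquitin is attached to proteins by a relay of activating (E1), conjugating (E2) and ligating (E3) enzymes, and deubiquitinases take it off again. E2 enzymes carry the activated ubiquitin, and together with the ligase they set what kind of chain is built. Deubiquitinases fall into families named after their catalytic domain, among them the ubiquitin-specific proteases (USP), the ovarian tumour domain proteases (OTUD) and the ubiquitin C-terminal hydrolases (UCHL). The genes described here are those whose symbol starts with USP, UBE2, OTUD, UCHL, PSMA, PSMB, PSMC or PSMD followed by letters or digits. Antisense transcripts, the near-identical USP17L copies and 1 further E2 gene were left out. Of 14883 named genes on the arrays, 86 matched. They comprise 55 deubiquitinases, 23 E2 enzymes or E2-like proteins, 5 transcribed pseudogenes and 3 genes of other function. Those 3 are USP6NL, a GTPase-activating protein for RAB proteins, USPL1, a SUMO protease, and PSMC3IP, a cofactor of homologous recombination. The deubiquitinases and E2 enzymes were classed by the prefix of the symbol, and whether each of the 55 removes ubiquitin was not checked. No named probe set carried a symbol of the PSMA, PSMB, PSMC or PSMD subunits of the proteasome, so these were not analysed here and the comparison is between deubiquitinases and E2 enzymes.

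The samples were cultures of the human neuroblastoma cell line SK-N-BE(2), taken 48 h after lentiviral infection. The shBRG1 group (n = 3) received a hairpin against BRG1, the motor subunit of SWI/SNF chromatin remodellers, and the NSC group (n = 3) received a non-silencing control hairpin in the same kind of vector. Both groups share the cell line, the medium and the infection, and the labels name 1 hairpin construct per group. From each sample 200 ng of total RNA was hybridised to 1 Affymetrix array, and the deposited values are log2 expression per probe set. The level of the BRG1 transcript, SMARCA4, was not analysed here, so the samples are described by their labels. The design describes transduction in triplicate and does not say whether the cultures were independent, so the spread behind the p-values may be technical.

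Array values correlated across named genes at 0.9948 to 0.9961 within groups and at 0.9879 to 0.9899 between them. The line was checked against sympathetic neuroblast markers, of which 12 of 14 were measured. All 12 were brighter than the median gene, with means over the 6 arrays of 7.66 to 11.3. At an adjusted p of 0.05 in limma, 7 of the 12 were lower and 0 higher in shBRG1 cells. Of all genes at or above the median gene, 11.9% were lower and 17.4% higher. Markers of other cell types were sparse on the arrays. Leukocyte (2 of 5 measured), endothelial (2 of 3), epithelial (3 of 4) and Schwann cell markers (3 of 5) had 8 of 10 genes below the median gene. Among the 10, 1 was lower and 0 higher in shBRG1 cells, against 7.19% and 9.78% of all named genes. Of 5 fibroblast genes only DCN and LUM were measured, and both were higher. Their mean log2 level was 6.94 to 7.11 in shBRG1 cells, against 6.52 to 6.70 in NSC cells. The part of these cell types in the results below was not tested, and in bulk RNA fewer cells of a type and less RNA per cell cannot be told apart.

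Among the 86 members, 15 passed an adjusted p of 0.05 in the limma fit over all named genes, 7 higher and 8 lower in shBRG1 cells. That is a share of 17.4%, against 17.0% of all named genes (9.78% higher and 7.19% lower). These shares were close, with brightness left aside. The 3 shBRG1 values lay outside the NSC range for 40 members (46.5%), against 35.5% of all named genes. Among deubiquitinases 3 rose, 5 fell and 47 did not pass the test (14.5% called), with a median log2 change of -0.0032. Among E2 enzymes 3 rose, 2 fell and 18 did not pass (21.7% called), with a median change of 0.02. The median over all named genes was 0.0059. Of the genes at or above the median signal of named genes, 7 of 43 deubiquitinases (16.3%) and 5 of 19 E2 enzymes (26.3%) were called, against 29.2% of all such genes. At that brightness the groups lay apart for 55.8% of deubiquitinases and 52.6% of E2 enzymes, against 54.6% of all such genes. After cyclic loess scaling the same 7 members were higher but 13 were lower, and among all genes the share of higher calls was 47.7% in place of 57.6%.

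The largest fall was that of USP1, the deubiquitinase that takes ubiquitin off the DNA repair protein FANCD2 and off the replication clamp. USP1 read 7.73, 7.84 and 7.76 in shBRG1 cells, against 9.13, 9.10 and 9.15 in NSC cells. The 3 shBRG1 arrays were all more than a log2 unit below every NSC array, a distance far beyond the spread within either group. The log2 change of USP1 was -1.35 (SE 0.07, 2.55-fold lower, adjusted p = 1.5e-04), and it was the 1 member that changed by at least 2-fold.

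The largest rise was that of USP40, a little-studied deubiquitinase. USP40 read 6.03, 6.11 and 5.88 in shBRG1 cells, against 5.29, 4.90 and 5.09 in NSC cells. The groups did not overlap, although the NSC arrays were more spread than for USP1. USP40 was 1.89-fold higher (log2 change 0.92, SE 0.11, adjusted p = 0.0024). Among E2 enzymes the largest fall was that of UBE2S, which extends ubiquitin chains for the anaphase-promoting complex, the ligase that drives exit from mitosis. UBE2S read 7.04, 6.85 and 7.13 in shBRG1 cells, against 7.81, 7.68 and 7.59 in NSC cells. All 3 shBRG1 arrays were below the lowest NSC array, and UBE2S was 1.61-fold lower (-0.68, SE 0.10, adjusted p = 0.0039).

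Remodelling ATPases act on chromatin at gene starts, but whether BRG1 acts at these 3 genes was not tested. The sequences at their starts are shown for the largest fall and rise among deubiquitinases and the largest fall among E2 enzymes. Each runs 5′ to 3′ along the gene from 250 bases before to 50 bases after the start, as given by RefSeq for GRCh38.p14. Capitals mark CCAAT boxes (CCAAT) and GC boxes (GGGCGG), each found on either strand. The other motifs searched on both strands were the CHR element (TTTGAA), the E-box (CACGTG) and an E2F site (TTTCGCGC or TTTGGCGC), and none of these letters is in the 3 windows. No marked motif overlaps another.
USP1 (chr1:62436145-62436444, + strand): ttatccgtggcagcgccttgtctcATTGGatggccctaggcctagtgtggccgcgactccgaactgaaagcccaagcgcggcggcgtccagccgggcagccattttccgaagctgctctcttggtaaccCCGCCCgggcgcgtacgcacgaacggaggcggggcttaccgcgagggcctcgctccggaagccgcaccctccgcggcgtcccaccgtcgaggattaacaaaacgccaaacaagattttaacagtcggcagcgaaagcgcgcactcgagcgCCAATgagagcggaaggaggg
USP40 (chr2:233566733-233567032, - strand): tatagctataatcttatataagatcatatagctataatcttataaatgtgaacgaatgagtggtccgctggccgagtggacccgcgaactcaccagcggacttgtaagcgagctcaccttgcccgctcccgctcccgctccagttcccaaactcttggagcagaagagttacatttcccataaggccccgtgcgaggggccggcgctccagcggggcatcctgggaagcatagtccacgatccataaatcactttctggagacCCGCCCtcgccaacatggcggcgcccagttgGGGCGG
UBE2S (chr19:55407739-55408038, - strand): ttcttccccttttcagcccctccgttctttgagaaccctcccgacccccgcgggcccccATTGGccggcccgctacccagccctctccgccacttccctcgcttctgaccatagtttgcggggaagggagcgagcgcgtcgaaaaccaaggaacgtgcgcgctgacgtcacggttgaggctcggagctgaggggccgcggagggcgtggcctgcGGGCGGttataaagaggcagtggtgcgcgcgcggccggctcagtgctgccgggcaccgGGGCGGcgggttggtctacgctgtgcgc

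The USP1 window held a CCAAT box 226 bases before the start and another 29 bases after it, with a GC box 121 bases before it. The UBE2S window held a CCAAT box 191 bases before the start and GC boxes 36 bases before and 22 bases after it. The USP40 window held GC boxes 13 and 44 bases after the start and no CCAAT box. CCAAT was in 35.7% of all 27305 promoters of the table and GGGCGG in 44.6%. Promoters of 64 members were matched, with a median GC content of 69.0% for the 7 matched members that fell, 73.0% for the 7 that rose and 69.2% for the 50 matched members that did not pass, against 58.3% over all promoters. CCAAT was in 4 of the 7 that fell, in 2 of the 7 that rose and in 12 of the 50 others, and GGGCGG in 7, 6 and 38 of them. In the same order the CHR element was in 1, 0 and 4, against 15.4% of all promoters. The E-box was in 0, 2 and 1 (7.43% of all), and the E2F site in 0, 0 and 1 (1.18% of all). A match describes the letters only, and binding was not measured.

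**Figure D1:**
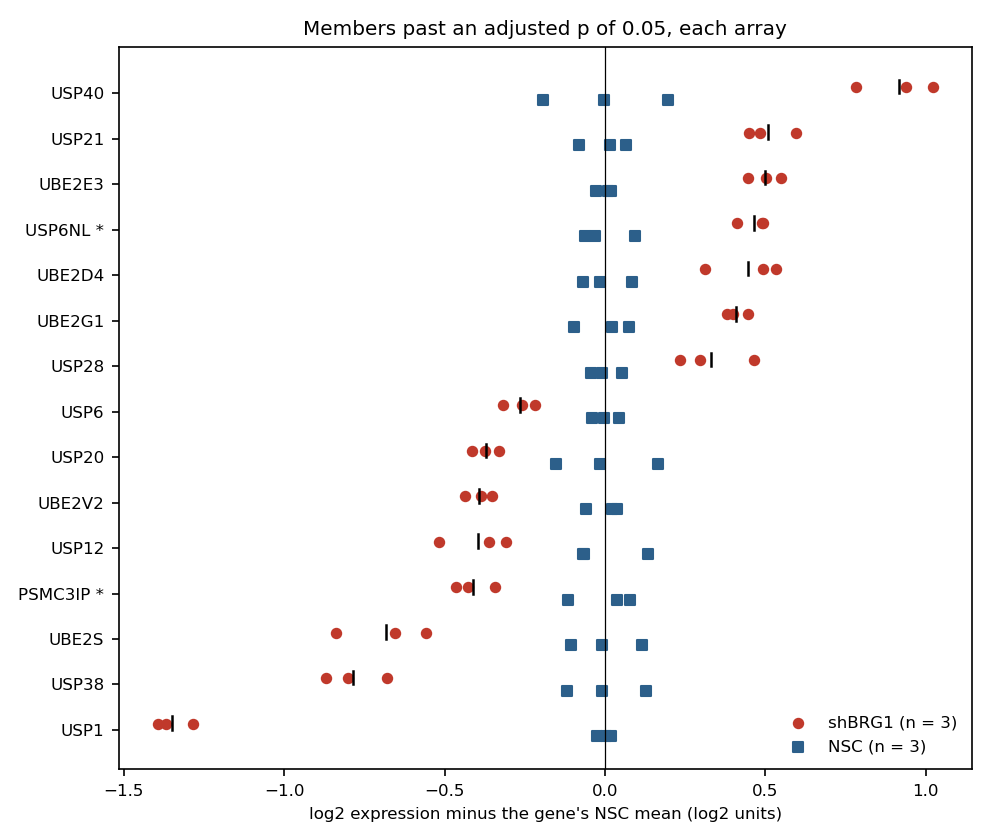
Log2 expression of each array minus the gene's NSC mean for the 15 members past an adjusted p of 0.05 (red circles, shBRG1, n = 3; blue squares, NSC, n = 3; black tick, mean of shBRG1). USP1 stands apart at the low end with a change of -1.35 and USP40 at the high end with 0.92. The groups overlap for none of the 15, which were picked by a test on the same values. Of all named genes, 35.5% had groups that did not overlap. An asterisk marks genes that are neither deubiquitinases nor E2 enzymes.

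The second deubiquitinase with a large fall was USP38, an enzyme linked to the regulation of type I interferon signalling. USP38 read 7.90, 8.09 and 7.97 in shBRG1 cells, against 8.90, 8.65 and 8.76 in NSC cells. The groups lay well apart, with a 1.72-fold lower signal in shBRG1 cells (-0.78, SE 0.09, adjusted p = 0.0018). USP21, a deubiquitinase that acts on histone H2A and is found at centrosomes and microtubules, went the other way. USP21 read 7.61, 7.46 and 7.49 in shBRG1 cells, against 7.08, 6.93 and 7.02 in NSC cells, and was 1.42-fold higher (0.51, SE 0.08, adjusted p = 0.0045). The calls of USP1, USP38, USP40 and USP21 held when any 1 array was left out, with adjusted p of 0.021 at most.

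The other 4 deubiquitinases past the threshold changed by less than 1.5-fold, and their calls were fragile. USP12, which is switched on by the same cofactor as USP1, read 6.81, 6.86 and 6.65 in shBRG1 cells, against 7.30, 7.10 and 7.10 in NSC cells (-0.40, SE 0.09, adjusted p = 0.023). USP20, which removes ubiquitin from the hypoxia factor HIF1A and from internalised receptors, averaged 5.53 ± 0.04 in shBRG1 cells and 5.90 ± 0.16 in NSC cells (SD, n = 3 each; change -0.37, adjusted p = 0.032). USP28, which counters the degradation of MYC and takes part in the p53 response to prolonged mitosis, averaged 7.42 ± 0.12 in shBRG1 cells and 7.09 ± 0.05 in NSC cells (change 0.33, adjusted p = 0.030). USP6, a hominoid-specific oncogene, was far dimmer than the median gene (5.09), at 2.53 ± 0.05 in shBRG1 cells and 2.80 ± 0.04 in NSC cells (change -0.26, adjusted p = 0.033). USP12 lost its call without shBRG1 replicate 1 or 3 or NSC replicate 1 (adjusted p up to 0.075). USP28 lost it without shBRG1 replicate 1 or 2 or any 1 NSC array (up to 0.089), USP20 without any 1 shBRG1 array or NSC replicate 1 or 3 (up to 0.097), and USP6 without any 1 of the 6 arrays (0.065 to 0.097). Without shBRG1 replicate 1 or NSC replicate 1, 2 deubiquitinases were lower in place of 5, and without shBRG1 replicate 2, shBRG1 replicate 3 or NSC replicate 3 there were 3.

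**Figure D2:**
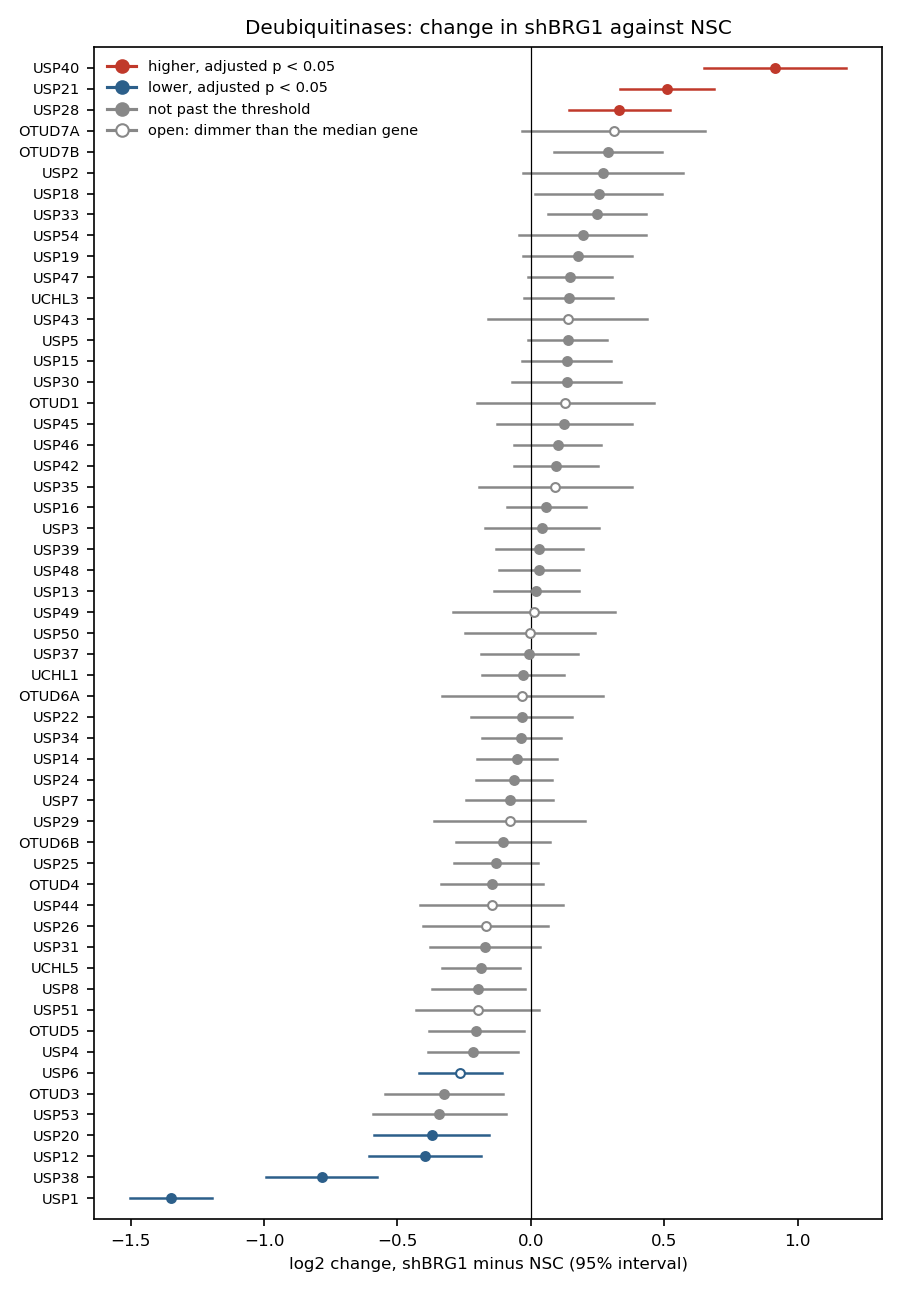
Log2 change of the 55 deubiquitinases, shBRG1 minus NSC, with the 95% interval of the moderated fit (not adjusted for the number of genes); open points are genes dimmer than the median gene of 5.09. Most points lie near 0, with a median of -0.0032, and USP1 (-1.35) and USP38 (-0.78) at the bottom and USP40 (0.92) at the top stand clear of the rest.

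Several well-studied deubiquitinases did not pass the threshold. UCHL1, a hydrolase abundant in neurons and neuroendocrine cells, read 9.55, 9.52 and 9.51 in shBRG1 cells, against 9.58, 9.49 and 9.60 in NSC cells. The groups overlapped, and the 95% interval of its log2 change was -0.18 to 0.12. USP7, which stabilises MDM2 and p53, averaged 9.96 ± 0.07 in shBRG1 cells and 10.04 ± 0.03 in NSC cells (SD, n = 3 each), with an interval of -0.24 to 0.08. USP7 carried the brightest signal of the deubiquitinases and USP44, a regulator of the spindle checkpoint, the dimmest (2.15 ± 0.22 in shBRG1 cells and 2.30 ± 0.09 in NSC cells), although brightness on an array is not a transcript level that can be compared between genes.

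Of the deubiquitinases that sit on the proteasome, USP14 had a log2 change of -0.05 (95% interval -0.20 to 0.10) and UCHL5, which is also a subunit of the INO80 remodeller, one of -0.19 (adjusted p = 0.088). UCHL5 read 7.07, 7.06 and 7.08 in shBRG1 cells, against 7.25, 7.30 and 7.23 in NSC cells. Its groups did not overlap, and it passed the threshold after cyclic loess and with dim genes left out (adjusted p 0.022 to 0.22 over the alternatives). USP22, the deubiquitinase of the SAGA coactivator, had a change of -0.03 (-0.22 to 0.16). USP8, which sorts receptors at endosomes, had one of -0.20 (adjusted p = 0.12), and it passed under trend and robust options and when dim genes were dropped (0.036 to 0.29). The mitochondrial USP30 (0.13), the nuclear USP48 (0.03), OTUD6B (-0.10) and UCHL3 (0.14) did not pass the threshold (adjusted p 0.23 to 0.81).

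The 8 OTUD genes ranged from -0.32 (OTUD3) to 0.31 (OTUD7A) in log2 change, and 0 of them passed in limma at an adjusted p of 0.05, while 3 had an unadjusted p under 0.05. OTUD3 read 6.53, 6.52 and 6.74 in shBRG1 cells, against 6.80, 6.91 and 7.04 in NSC cells. Its groups did not overlap and its adjusted p was 0.055, with a call after cyclic loess, with dim genes left out, with trend and robust options or without shBRG1 replicate 3. Of the 3 UCHL genes 0 passed, and 1 had an unadjusted p under 0.05. Of all 14883 named genes, 4525 had such a p in limma. The 8 calls among deubiquitinases were all in the 44 USP genes. That is a share of 18.2%, against 17.0% of all named genes. Of the 44, 9 were below the median gene. Among deubiquitinases at or above the median gene 16.3% were called, against 29.2% of all genes that bright. A difference between families was not tested. USP2 had 2 probe sets that went in different directions, at 0.27 for the brighter one and -0.13 for the dimmer one, and neither was called.

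Of the E2 enzymes that passed, 3 rose and 2 fell. UBE2E3, an E2 that is carried into the nucleus once loaded with ubiquitin, read 5.57, 5.62 and 5.52 in shBRG1 cells, against 5.08, 5.09 and 5.04 in NSC cells. The arrays of each group lay within a narrow range, and UBE2E3 was 1.41-fold higher (0.50, SE 0.07, adjusted p = 0.0028). UBE2G1, an E2 that works with cullin ligases and in the degradation of proteins from the endoplasmic reticulum, read 9.81, 9.86 and 9.79 in shBRG1 cells, against 9.43, 9.31 and 9.49 in NSC cells (0.41, SE 0.07, adjusted p = 0.0091). UBE2D4, a member of the promiscuous UBE2D family, read 6.44, 6.40 and 6.21 in shBRG1 cells, against 5.98, 5.83 and 5.89 in NSC cells (0.45, SE 0.08, adjusted p = 0.012).

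The other E2 gene that fell, beside UBE2S, was UBE2V2. It encodes a variant without a catalytic cysteine that pairs with UBE2N to build the chains used in DNA damage tolerance. UBE2V2 read 5.62, 5.66 and 5.57 in shBRG1 cells, against 6.05, 5.95 and 6.03 in NSC cells, 1.31-fold lower without overlap (-0.39, SE 0.07, adjusted p = 0.0077). Its partner UBE2N averaged 6.08 ± 0.10 in shBRG1 cells and 5.95 ± 0.03 in NSC cells (SD, n = 3 each), with a change of 0.13 (adjusted p = 0.30). The calls of UBE2E3, UBE2G1, UBE2D4, UBE2S and UBE2V2 held when any 1 array was left out, with adjusted p of 0.044 at most.

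Several E2 genes with well-known tasks did not pass the threshold. UBE2T, which loads ubiquitin onto FANCD2 and so opposes USP1, read 9.94, 10.03 and 9.96 in shBRG1 cells, against 10.12, 10.09 and 10.15 in NSC cells. The groups lay apart by a small margin, with a change of -0.14 (95% interval -0.29 to 0.01, adjusted p = 0.20) and a call with trend and robust options alone among the alternatives (0.018 to 0.38). UBE2A and UBE2B, the near-identical human forms of yeast RAD6, which mark histone H2B and the replication clamp, had changes of -0.0066 and -0.09. UBE2K carried the brightest E2 signal (10.5 ± 0.02 in shBRG1 cells and 10.4 ± 0.09 in NSC cells, change 0.15, adjusted p = 0.22), with a call only under trend and robust options. UBE2U was the dimmest, at 2.10 ± 0.10 in shBRG1 cells and 2.11 ± 0.16 in NSC cells.

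**Figure D3:**
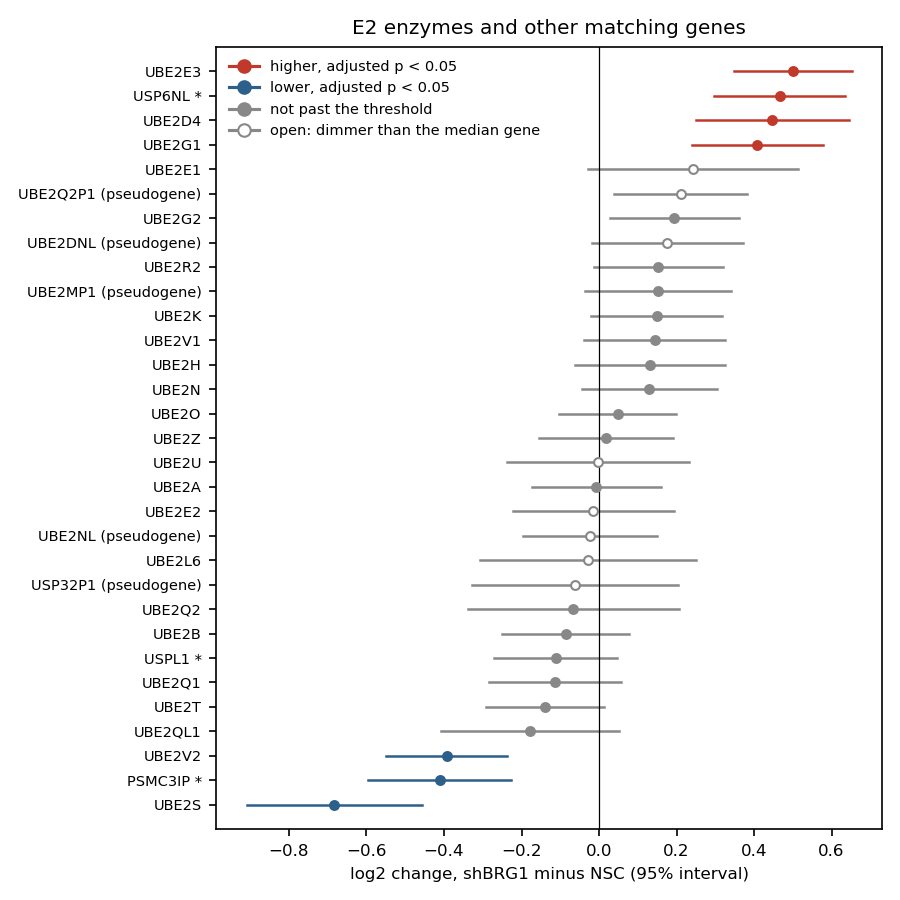
Log2 change of the 23 E2 enzymes, the 5 pseudogenes and the 3 genes of other function (asterisk), shBRG1 minus NSC, with the 95% interval of the moderated fit; open points are dimmer than the median gene of 5.09. UBE2E3 (0.50), UBE2D4 (0.45) and UBE2G1 (0.41) lie at the top, UBE2S (-0.68) and UBE2V2 (-0.39) at the bottom, and 0 of the pseudogenes passed the threshold.

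Of the matching genes of other function, USP6NL was 1.38-fold higher (0.47, SE 0.07, adjusted p = 0.0055), and PSMC3IP, known as HOP2, was 1.33-fold lower (-0.41, SE 0.08, adjusted p = 0.012). USP6NL read 7.25, 7.33 and 7.33 in shBRG1 cells, against 6.81, 6.78 and 6.93 in NSC cells. PSMC3IP read 8.18, 8.27 and 8.14 in shBRG1 cells, against 8.69, 8.49 and 8.65 in NSC cells, and neither gene's groups overlapped. USPL1 had a change of -0.11 (adjusted p = 0.33). The 5 pseudogenes ranged from -0.06 (USP32P1) to 0.21 (UBE2Q2P1), and 1 had an unadjusted p under 0.05 in limma. Their probes can also pick up the parent genes, as those of closely related members can pick up each other.

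Many members have close relatives among the others. In 17 families of related members, listed with the values known, 6 held a called gene, and in 0 of them were all measured genes called. Of all named genes 17.0% were called. The counts expected for families of unrelated genes were not worked out, so these counts are not a result about relatives. USP1, USP12 and USP46 all depend on the cofactor WDR48. USP1 and USP12 fell, whereas USP46 read 7.21, 7.18 and 7.16 in shBRG1 cells, against 7.16, 7.01 and 7.08 in NSC cells (0.10, adjusted p = 0.39). WDR48 itself had a change of 0.13 (adjusted p = 0.26), and WDR20, a further cofactor of USP12 and USP46, one of -0.07 (adjusted p = 0.76).

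Beside USP20, its relative USP33 read 7.16, 7.24 and 7.24 in shBRG1 cells, against 6.98, 7.06 and 6.84 in NSC cells, a change of 0.25 (adjusted p = 0.073). Beside USP28, the related USP25 had a change of -0.13 (adjusted p = 0.24). Of the UBE2E trio, UBE2E1 had a change of 0.24 (adjusted p = 0.21) and UBE2E2 one of -0.01 (adjusted p = 0.94), both dimmer than the median gene, where UBE2E3 rose by 0.50. UBE2V1, the twin of UBE2V2 with a role in NF-kB signalling, read 9.32, 9.47 and 9.25 in shBRG1 cells, against 9.20, 9.16 and 9.24 in NSC cells (0.14, adjusted p = 0.27). UBE2G2 had a change of 0.19 (adjusted p = 0.11) beside the 0.41 of UBE2G1. The differences between relatives were not tested, so a pair with 1 call is not shown to differ.

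**Figure D4:**
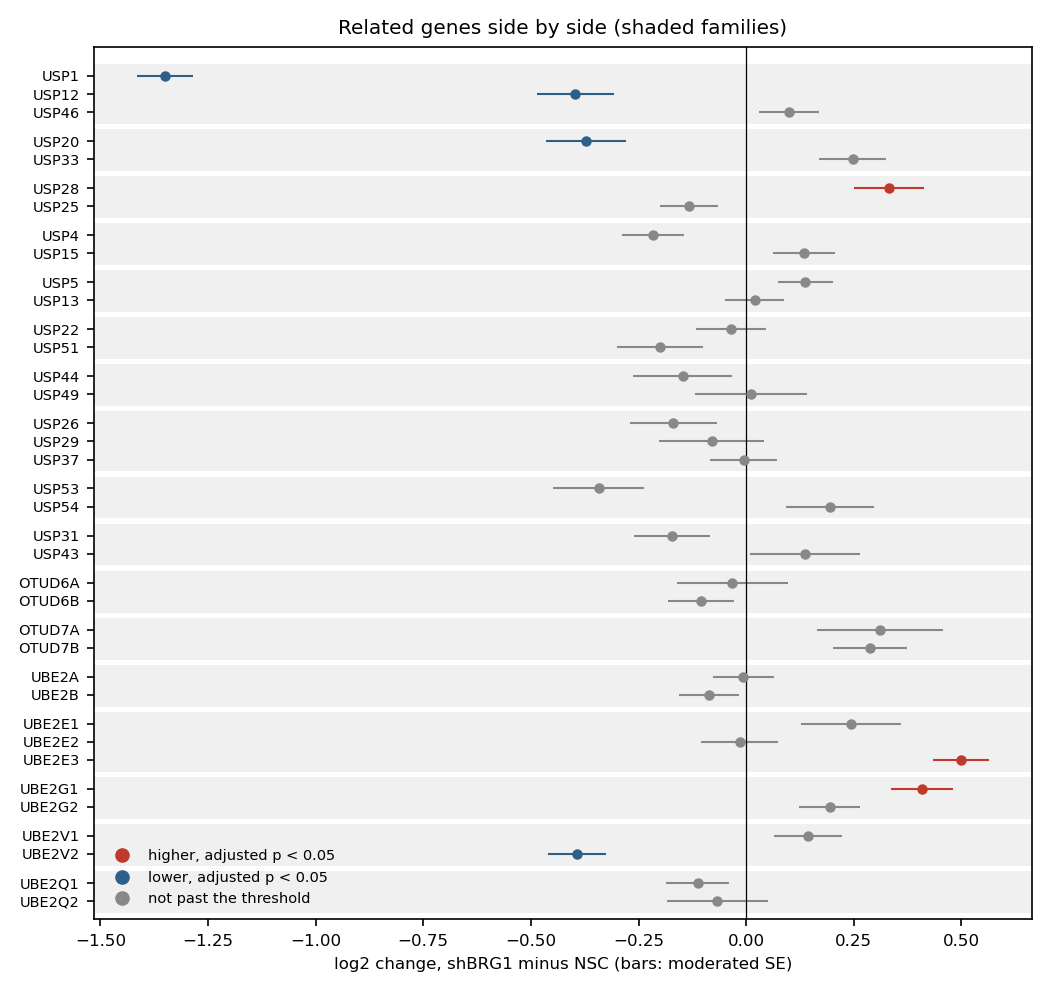
Log2 change, shBRG1 minus NSC, of 37 genes in 17 families of related members (shaded bands; points, change; bars, moderated SE). In 6 families 1 or more genes were called, such as USP1 (-1.35) and USP12 (-0.40) beside USP46 (0.10), and UBE2V2 (-0.39) beside UBE2V1 (0.14). Of all named genes 17.0% were called, and differences between relatives were not tested.

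Other genes of the pathway were counted by lists, nearly all of whose measured genes were at or above the median gene (at most 1 per list was dimmer). Of all named genes that bright, 29.2% were called, 17.4% higher and 11.9% lower, and these shares are the background for the counts that follow. Ubiquitin and its relatives had 2 of 7 measured genes higher and 0 lower, UFM1 (0.44, adjusted p = 0.0062) and URM1 (0.39, adjusted p = 0.015). UBB, a polyubiquitin gene, had a change of 0.12 (adjusted p = 0.57). Of 8 measured E1 enzymes 0 passed, with 1 at an unadjusted p under 0.05 in limma, and UBA1, the main E1 of ubiquitin, had a change of 0.08 (adjusted p = 0.52). URM1 lost its call without NSC replicate 2 (adjusted p = 0.0505).

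Among 13 measured deubiquitinases outside the USP, OTUD and UCHL names, 2 rose and 1 fell. The one that fell was CYLD, the tumour suppressor that trims linear and signalling chains and restrains NF-kB. CYLD read 5.79, 5.97 and 5.80 in shBRG1 cells, against 7.02, 6.78 and 6.77 in NSC cells. The groups lay far apart, and CYLD was 2.00-fold lower (-1.0, SE 0.10, adjusted p = 8.9e-04). JOSD1 (0.31, adjusted p = 0.027) and COPS5, the NEDD8-removing subunit of the COP9 signalosome (0.30, adjusted p = 0.039), were higher. Both lost their calls without shBRG1 replicate 2 or 3 or any 1 NSC array (adjusted p up to 0.081 for JOSD1 and 0.12 for COPS5), and COPS5 also after cyclic loess.

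Cofactors of deubiquitinases had 3 of 12 measured genes higher and 1 lower, against 17.4% and 11.9% of all genes at or above the median gene. STAM, an endosomal adaptor that recruits USP8, read 8.15, 8.37 and 8.26 in shBRG1 cells, against 9.36, 9.42 and 9.48 in NSC cells, 2.24-fold lower without overlap (-1.16, SE 0.08, adjusted p = 2.9e-04). Its relative STAM2 read 7.65, 7.47 and 7.46 in shBRG1 cells, against 7.26, 6.99 and 7.07 in NSC cells, and was higher (0.42, SE 0.10, adjusted p = 0.023). STAM and STAM2 thus both passed the threshold, in opposite directions. UIMC1 (0.46, adjusted p = 0.015) and BABAM1 (0.33, adjusted p = 0.021), which belong to the BRCA1-A complex with the deubiquitinase BRCC3, were also higher. The 3 higher calls fell to 0 without shBRG1 replicate 1 or 2, to 1 without shBRG1 replicate 3 or NSC replicate 2, and to 2 without NSC replicate 1. STAM2 was lost without any 1 shBRG1 array or NSC replicate 2 or 3 (adjusted p up to 0.076), BABAM1 without any 1 shBRG1 array or NSC replicate 1 or 2 (up to 0.067), and UIMC1 without shBRG1 replicate 1 or 2 (up to 0.056).

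Regulators of proteasome genes and shuttle factors, which bring ubiquitinated proteins to the proteasome, had 6 of 14 measured genes higher and 0 lower, against 17.4% and 11.9% of all genes at or above the median gene. NFE2L2, the master regulator of the oxidative stress response, read 7.65, 7.74 and 7.66 in shBRG1 cells, against 7.30, 7.25 and 7.24 in NSC cells (0.42, SE 0.07, adjusted p = 0.0056). NFE2L1, the factor that raises proteasome genes when the proteasome is inhibited, read 9.86, 9.95 and 9.90 in shBRG1 cells, against 9.62, 9.46 and 9.59 in NSC cells (0.35, SE 0.07, adjusted p = 0.017). The segregase VCP (0.26, adjusted p = 0.038), its cofactor NPLOC4 (0.36, adjusted p = 0.014) and the ubiquilins UBQLN2 (0.36, adjusted p = 0.015) and UBQLN4 (0.41, adjusted p = 0.016) rose as well.

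The median change of the regulators and shuttle factors was 0.19, against 0.0059 over all genes and 0.06 over those at or above the median gene, and the list was not tested as a whole. FAF1, a VCP cofactor, had a change of -0.25 (adjusted p = 0.051). After cyclic loess 5 genes of the list were higher and 1 lower. Adjusted over every probe set or at an adjusted p of 0.01 the 6 calls became 1, and NPLOC4 was among those lost. They fell to 3 without shBRG1 replicate 2 or 3 or NSC replicate 2, and VCP lost its call without any 1 of the 6 arrays (adjusted p 0.069 to 0.12) and after cyclic loess. NFE2L1 and UBQLN4 were lost without shBRG1 replicate 2 or 3 or NSC replicate 2 (up to 0.057 and 0.059), and UBQLN2 without shBRG1 replicate 1 or NSC replicate 1 (up to 0.054).

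Proteasome assembly and regulatory factors, a list that also holds the subunits ADRM1 and SEM1, had 2 of 6 measured genes higher and 0 lower, against 17.4% and 11.9% of all genes at or above the median gene. They were PAAF1 (0.38, adjusted p = 0.028) and TXNL1 (0.25, adjusted p = 0.039). POMP, the chaperone of core assembly, had a change of 0.06 (adjusted p = 0.57), and ADRM1, the ubiquitin receptor that docks UCHL5, one of 0.19 (adjusted p = 0.15). SEM1, a small subunit of the regulatory particle, had one of 0.04 (adjusted p = 0.80). TXNL1 lost its call without any 1 array (0.079 to 0.11) and after cyclic loess, and PAAF1 without shBRG1 replicate 2 or 3 or any 1 NSC array (up to 0.085). SUMO and NEDD8 proteases had 2 of 7 measured genes higher, DESI1 (0.35, adjusted p = 0.011) and SENP7 (0.32, adjusted p = 0.047), and 1 lower, SENP1 (-0.28, adjusted p = 0.026). SENP7 was lost without any 1 shBRG1 array or NSC replicate 2 or 3 (up to 0.13) and after both other scalings, and SENP1 without any 1 shBRG1 array or NSC replicate 1 or 3 (up to 0.088) and after centring.

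**Figure D5:**
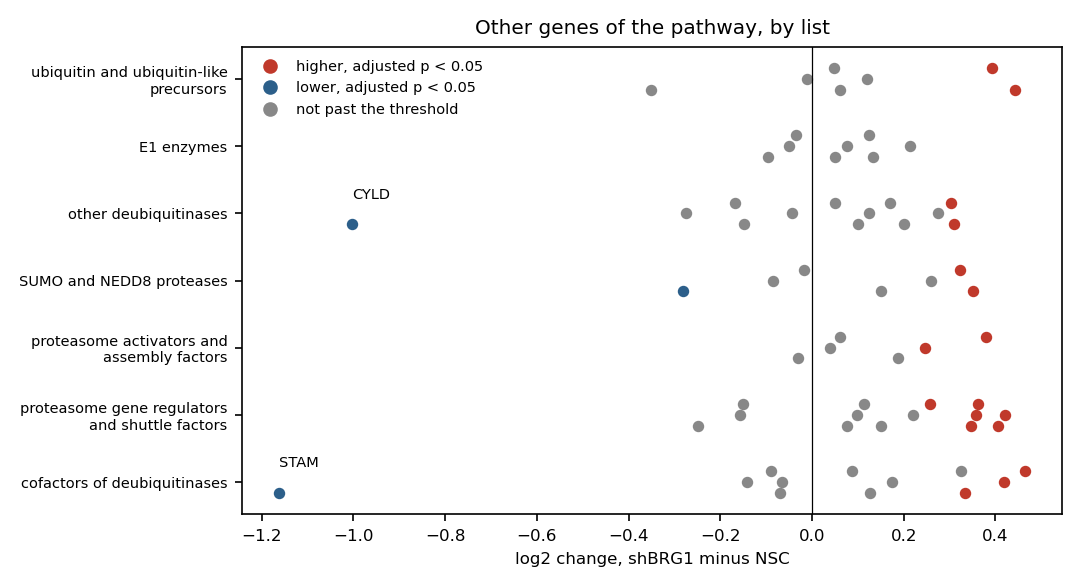
Log2 change, shBRG1 minus NSC, of other measured genes of the pathway by list (each point a gene; red, higher and blue, lower at an adjusted p of 0.05; grey, not past the threshold). CYLD (-1.0) and STAM (-1.16) stand far to the left. The regulators and shuttle factors have 6 red points and 0 blue ones. Of all genes at or above the median gene, 17.4% were higher and 11.9% lower. After cyclic loess 5 of these regulators and shuttle factors were higher and 1 lower. With the replicate block or at an adjusted p of 0.01, 1 was higher.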

How the data were processed

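RNA from 6 SK-N-BE(2) cultures, 3 shBRG1 and 3 NSC by their lentivirus label, was hybridised to 1 array each. The authors deposited log2 values per probe set. The submitters' processing notes name R 3.1.0, limma 3.19, oligo 1.27 and RMA, and the log2 scale was taken from the range of the values, 1.19 to 13.8. RMA brings arrays to 1 common distribution, which hides a global shift and understates changes of dim genes. No source used here gives the genome build of the probes, and detection calls were not used here.

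A platform annotation gave 15828 of 52299 probe sets 1 gene symbol, 0 several and 36471 none. All 15828 symbols were updated by gene ID against a RefSeq table of GRCh38.p14, and the brightest probe set of each gene by its mean of 6 arrays was used, for 14883 genes. Members were taken by symbol from these genes. The test was limma's (version 3.58.1, R 4.3.3), two-sided, from lmFit and eBayes without covariate or filter, with Benjamini-Hochberg adjustment over all named genes and a threshold of 0.05. Changes are shBRG1 minus NSC means on the log2 scale with the moderated SE. The smallest p of an exact permutation test is 0.1 at this size. The planned proteasome counts were not made.

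The members, lists and naming rule were chosen with earlier results of these data known. The text names called members whose groups do not overlap, 18 measured members of 38 named with or without a change, the brightest and dimmest of each class, and called genes of the other lists; further genes were named after their values were seen. Alternatives were 2 other scalings, leaving out dim genes, averaging probe sets, trend and robust options, array weights, all probe sets, a block on the replicate number, dropping each array in turn, a fold of at least 1.5 and a threshold of 0.01. On simulated data of 14883 genes for shBRG1 against NSC the fit recovered 86 of 100 genes with a log2 change of 1. It recovered 49 of 100 with one of 0.5, with 8 unchanged genes among 143 calls. Far more genes, 2525, were called in the real data, and the adjustment depends on how many genes change. The simulated recovery is therefore not the sensitivity of the real fit. Plots were made in Python 3.11.15 (matplotlib 3.10.9).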

Additional observations from a re-analysis of the deposited data

How the results depend on the processing

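With 3 arrays per group, member calls near the threshold moved under the most alternatives. A fold of at least 1.5 left 4 of the 15 member calls. It also took calls far from the threshold, such as that of UBE2E3 (adjusted p = 0.0028 in limma). The 3 higher deubiquitinases became 6 with trend and robust options, 5 with dim genes left out and 1 at a fold of at least 1.5, and 2 to 3 without 1 array. The 5 lower ones became 10 after cyclic loess and with dim genes left out, 9 with trend and robust options, 3 with the replicate block, 2 over every probe set, at an adjusted p of 0.01 and at a fold of at least 1.5, and 2 to 4 without 1 array. The 3 higher E2 enzymes became 5 with trend and robust options and 0 at a fold of at least 1.5, and the 2 lower ones became 1 at that fold; both counts kept their size without any 1 array (3 and 2). The count of all named genes past the threshold, 2525, became 1608 with the replicate block, 1259 over every probe set, 1086 at an adjusted p of 0.01, 600 at a fold of at least 1.5, and 1604 to 1840 without 1 array. Cyclic loess gave 2541 calls in all, 1212 of them higher. Deviations of equal-numbered arrays correlated at -0.044, -0.144 and -0.033, so no shared effect of the title numbers was visible. Such correlations cannot say how the cultures were set up, so whether equal numbers mark a pairing is not known. Under the replicate block 12 of the 15 members were called, without USP28, USP20 and USP6. Of the other lists, the 6 higher regulators and shuttle factors became 1 with the replicate block, over every probe set and at an adjusted p of 0.01, and 0 at a fold of at least 1.5. The 3 higher cofactors became 2 with the replicate block and 0 over every probe set and at an adjusted p of 0.01. Higher calls among other deubiquitinases and proteasome factors, 2 in each list, became 0 under these 3 settings. Of the changes of named genes over the alternatives, 648 kept their direction and side, 182 lost a call, 6 gained one and 9 reversed, all 9 of uncalled genes with changes near 0. The log2 change of UBE2A was 0.012 after centring and -0.035 to 0.030 without 1 array. The log2 change of UBE2U was 0.016 after centring, 0.035 after cyclic loess and -0.084 to 0.080 without 1 array. The log2 change of USP22 was -0.098 to 0.013 without 1 array, and the log2 change of USP48 was -0.035 after cyclic loess. The cause of these moves was not tested.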

Other observations

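Transcripts antisense to or divergent from members, or from proteasome genes, were left out of the counts above. PSMD6-AS2 read 5.57, 5.45 and 5.61 in shBRG1 cells, against 5.25, 5.04 and 5.29 in NSC cells, a log2 change of 0.35 (SE 0.09, adjusted p = 0.037 in limma), which was lost without any 1 array (0.0503 to 0.113) and after cyclic loess. PSMA3-AS1 had a change of -0.05 (adjusted p = 0.84), USP2-AS1 one of 0.07 (0.69), USP3-AS1 one of 0.25 (0.61), USP30-AS1 one of 0.06 (0.65) and USP27X-DT one of -0.24 (0.088). USP3-AS1 had the widest spread of these 6, at 4.88, 4.24 and 5.25 in shBRG1 cells, against 4.45, 4.24 and 4.95 in NSC cells.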
